A study of Mus musculus with 17 samples.

Results

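Transcript levels are described here for 358 genes of mouse chromosome 2 that start between 60 and 160 Mb (genome build GRCm38). They had a mean of at least 8 CPM (counts per 1 M gene counts, with library totals scaled by TMM) over the 12 libraries labelled Normal. The interval holds 2036 of the 47643 gene rows of the deposited table, and 8449 genes of the whole table reached 8 CPM. The members comprised 333 protein-coding genes, 19 pseudogenes and 6 genes of other biotypes. A set of 14 genes was left out by name, Spi1 among them, of which 9 had reached 8 CPM. The interval was selected on measured values, because its genes lay near 50% of their Normal level in 3 libraries of acute myeloid leukaemia (AML). That low level is therefore given as a description, with no test, and the question followed was which genes lay at it and which did not.

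RNA was measured in 17 libraries of cKit+ Lymph- Ery- HSPC, bone marrow cells sorted for the stem and progenitor receptor cKit and against lymphoid and erythroid surface markers. The Normal libraries were 3 wild types (WT, URE+/+;Tet2+/+), 3 URE het (URE[delta]/+;Tet2+/+), 3 Tet2 het (URE+/+;Tet2+/-) and 3 Tet2 KO (URE+/+;Tet2-/-). The URE is the upstream regulatory element, an enhancer of Spi1, and Tet2 is a DNA demethylase known for its mutations in clonal blood disorders. The AML libraries were 2 URE het Tet2 het (URE[delta]/+;Tet2+/-) and 3 URE het Tet2 KO (URE[delta]/+;Tet2-/-). AML and the compound genotypes coincided in every library and cannot be told apart. No treatment was given in the labels, and strain, age and sex per library were not given either. Nothing in the labels states that the libraries came from separate mice, so p-values measure the spread between these libraries, which may be technical. The compound libraries are called compound het 1 and 2 and compound KO 1 to 3, by genotype (URE het Tet2 het, or URE het with Tet2 KO) and replicate number. The 3 libraries that chose the interval, called the 3 low libraries, were compound het 1, compound KO 2 and compound KO 3, and their values are always given in that order. The remaining AML libraries, compound KO 1 and compound het 2, took no part in the choice and are given in that order too.

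A diploid cell carries a maternal and a paternal copy of each autosome, and the RNA of many genes follows the number of copies, while for others feedback on transcription or decay offsets or enlarges it. Spi1, the gene for the myeloid transcription factor PU.1, lies within the interval, and loss of part of a chromosome 2 homologue with Spi1 is a known event in radiation-induced myeloid leukaemia of mice. The libraries measure RNA alone. DNA copy number was not analysed here, and in bulk samples fewer cells of a type and less RNA per cell cannot be told apart.

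Gene counts ran from 21.1 to 38.3 M per library, and every member had at least 1 count in each of the 5 AML libraries. Spi1 measured 21.6, 7.83 and 12.2 CPM in the 3 low libraries, 98.6 and 34.9 CPM in the other AML libraries and 45.3 to 137 CPM in the Normal libraries. Its Normal values split by the number in the library titles, with 90.9 to 137 CPM in numbers 1 to 7 and 45.3 to 63.1 CPM in numbers 8 to 17, so levels against the Normal libraries of the same range are also given below. Tet2 RNA was 80.2 to 86.3 CPM in Tet2 KO and 108 to 133 CPM in WT, 112 to 176 CPM in the compound KO and 156 and 234 CPM in the compound het libraries. The deleted part of Tet2 was not given in the labels, so its RNA does not check the genotypes. Among the markers of progenitors, Kit lay at 112%, 99.96% and 89.3% of its Normal mean in the 3 low libraries. Mpo lay at 112%, 144% and 129% there, Myb at 76.9%, 112% and 117% and Flt3 at 61.4%, 135% and 17.9%. Cd34 measured 0.0650, 0.545 and 0.393 CPM there. It measured 10.1 and 73.6 CPM in the other AML libraries and 59.4 to 145 CPM in the Normal libraries, so compound KO 1 was also under the Normal range. Gata2 measured 0, 0.172 and 0.998 CPM in the 3 low libraries. It measured 0.930 and 11.8 CPM in the other AML libraries and 3.003 to 9.32 CPM in the Normal libraries. Summed levels of 5 erythroid markers were 0.599 to 20.2 CPM in Normal libraries and 0.635 to 2.16 CPM in AML libraries. The 5 T cell markers summed to 0.865 to 5.69 CPM in Normal and 0.0573 to 5.72 CPM in AML libraries, and the 4 B cell markers to 5.72 to 17.4 and 0.143 to 7.64 CPM. For 5 stromal and endothelial markers the sum was 36.0 to 58.9 CPM in Normal libraries, 27.2, 136 and 106 CPM in the 3 low libraries and 18.9 and 67.2 CPM in the other AML libraries. Most of that sum was Pecam1, which progenitors also transcribe. The part of these markers in the results was not tested.

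The promoters below belong to members at the extremes: Serf2, which lay closest to 50% in all 3 low libraries, Plcb1, which lay highest, Hdc, which lay lowest, and the mitotic checkpoint genes Bub1 and Bub1b, which lay below it. Each window runs from 250 bases before to 50 bases after the RefSeq gene start (GRCm38.p6), 5′ to 3′ on the strand of the gene. Serf2, Plcb1 and Bub1b lie on the plus strand, and Hdc and Bub1 on the minus strand. Capitals mark matches on either strand to CCAAT, the box bound by NF-Y, or TTTGAA, an element known from cell cycle promoters (CHR).
Serf2 chr2:121448948-121449247: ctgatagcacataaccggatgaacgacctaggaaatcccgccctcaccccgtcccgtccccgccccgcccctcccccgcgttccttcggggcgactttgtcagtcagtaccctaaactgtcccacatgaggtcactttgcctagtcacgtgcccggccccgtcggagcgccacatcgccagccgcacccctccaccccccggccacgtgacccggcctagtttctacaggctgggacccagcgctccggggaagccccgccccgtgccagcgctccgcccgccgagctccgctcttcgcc
Plcb1 chr2:134785914-134786213: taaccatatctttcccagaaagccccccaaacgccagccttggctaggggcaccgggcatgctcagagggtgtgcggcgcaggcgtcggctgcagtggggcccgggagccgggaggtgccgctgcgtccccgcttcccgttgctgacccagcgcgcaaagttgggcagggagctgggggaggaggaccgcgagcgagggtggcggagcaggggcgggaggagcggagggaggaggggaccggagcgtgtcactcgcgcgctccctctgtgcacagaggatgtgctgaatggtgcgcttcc
Hdc chr2:126618629-126618928: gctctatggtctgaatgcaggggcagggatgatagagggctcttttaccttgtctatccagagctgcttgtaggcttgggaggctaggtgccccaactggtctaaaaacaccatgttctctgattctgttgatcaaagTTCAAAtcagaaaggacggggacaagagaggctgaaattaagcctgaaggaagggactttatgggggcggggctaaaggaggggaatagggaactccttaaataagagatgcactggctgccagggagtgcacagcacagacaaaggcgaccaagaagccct
Bub1 chr2:127831810-127832109: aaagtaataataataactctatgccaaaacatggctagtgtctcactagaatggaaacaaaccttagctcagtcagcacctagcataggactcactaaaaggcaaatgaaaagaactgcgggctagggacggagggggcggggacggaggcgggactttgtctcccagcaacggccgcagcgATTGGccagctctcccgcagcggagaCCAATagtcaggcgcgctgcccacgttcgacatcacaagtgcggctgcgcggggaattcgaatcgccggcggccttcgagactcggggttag
Bub1b chr2:118597961-118598260: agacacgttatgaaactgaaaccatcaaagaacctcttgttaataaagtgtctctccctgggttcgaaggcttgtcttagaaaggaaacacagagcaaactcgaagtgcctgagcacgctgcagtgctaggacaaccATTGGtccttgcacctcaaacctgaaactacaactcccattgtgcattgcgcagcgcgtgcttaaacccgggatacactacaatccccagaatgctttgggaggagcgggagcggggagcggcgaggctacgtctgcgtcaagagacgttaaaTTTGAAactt

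Of the 358 members, 300 had a RefSeq window. CCAAT was present in 37.3% of these windows and in 37.4% of all 32851 RefSeq promoters of the same length, and the PU.1 motif GAGGAAGT in 4.67% against 3.20%. The CREB motif TGACGTCA was present in 1.67% against 1.79%, and TTTGAA in 13.7% against 17.9%. Bub1 held 2 CCAAT matches, Bub1b 1 CCAAT and 1 TTTGAA match, and Hdc 1 TTTGAA match. None of the 4 motifs was found in the windows of Serf2 and Plcb1. TTTGAA was present in 8 (42.1%) of the 19 windows of genes below the band around 50% in all 3 low libraries. It was present in 10.2% of the 98 windows of genes within that band. Of the cell cycle list members below the band, Bub1b, Knl1 and Cdk5rap1 held it, while Bub1, Nusap1, Cdca7 and Kif18a did not. GAGGAAGT was present in 3 (17.6%) of the 17 windows of genes above the band, 5.26% of those below and 5.10% of those within. TTTGAA was added to the search after the values had been seen, and the matches are descriptions of these letters, not of binding. The RefSeq start of Hdc lies 621 bases from its start in the GENCODE annotation used here for positions. Those of Serf2, Bub1 and Bub1b lie within 6 bases of it, and that of Plcb1 lies 97 bases away.

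The members lay near 50% of their Normal level in the 3 low libraries and near the level of the other chromosomes elsewhere. Their median level, as a percent of each gene's mean over the 12 Normal libraries, was 51.6%, 51.7% and 50.03% in the 3 low libraries. Single Normal libraries had medians of 91.7% to 103% (SD 3.58 percentage points, n = 12). In the other AML libraries the medians were 104% and 87.9%. Genes of the 18 other autosomes had medians of 98.6%, 97.7% and 95.4% in the 3 low libraries and 103% and 89.3% in the other AML libraries. The last of these is a shift of all genes by more than 0.1 on the log2 scale. Set against the other autosomes of the same library, the members stood at 52.4%, 52.9% and 52.5% in the 3 low libraries. In the AML libraries that had not been used for the choice the same ratio was 101% and 98.4%, both within the 96.7% to 105% of the Normal libraries.

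**Figure D1:**
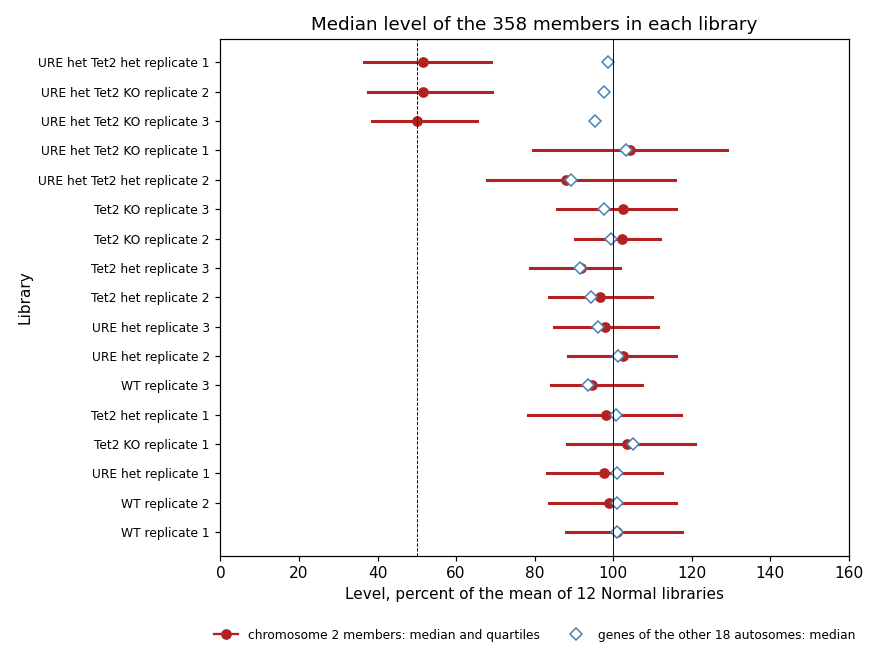
Median level of the 358 members (filled circles, with lines from the lower to the upper quartile) and of genes on the 18 other autosomes (open diamonds) in each of 17 libraries, as percent of the mean of 12 Normal libraries on a linear axis. The circles of the 3 low libraries sit at 50.03% to 51.7%, away from their diamonds, and those of the other 14 libraries sit at 87.9% to 104%, beside theirs.

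No other autosome stood near 50%. In compound het 1 the medians of the 18 other autosomes ran from 92.5% (chromosome 13) to 105% (chromosome 12), in compound KO 2 from 93.1% (chromosome 17) to 105% (chromosome 16), and in compound KO 3 from 92.9% (chromosome 4) to 99.3% (chromosome 16). On the TMM scale the CPM of the members summed to 1.43%, 1.36% and 1.25% of 1 M in the 3 low libraries. The sums were 2.03% to 2.63% in Normal libraries and 2.67% and 1.98% in the other AML libraries. Both statements hold for genes at or above 8 CPM. For the 200 genes of the interval with 1 to 8 CPM, the medians were 48.9%, 54.5% and 59.4% in the 3 low libraries, against 87.3% to 108% in Normal libraries.

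Each 10 Mb bin of the interval had a low median in the 3 low libraries, though the last 2 Mb did not in compound KO 2. In bins of 10 Mb, which held 18 to 72 genes each, the medians of the 10 bins inside ran from 41.0% to 60.8% in compound het 1, from 48.2% to 69.1% in compound KO 2 and from 41.7% to 54.6% in compound KO 3. The 7 bins from 0 to 50 Mb and 170 to 190 Mb ran from 93.4% to 114.5%, 86.5% to 123% and 92.1% to 130% in these libraries. The bins in between had medians of 100.1%, 50.8% and 75.2% (50 to 60 Mb) and 98.1%, 84.6% and 62.7% (160 to 170 Mb). The interval was chosen on these levels, so the contrast of inside and outside bins is a description.

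**Figure D2:**
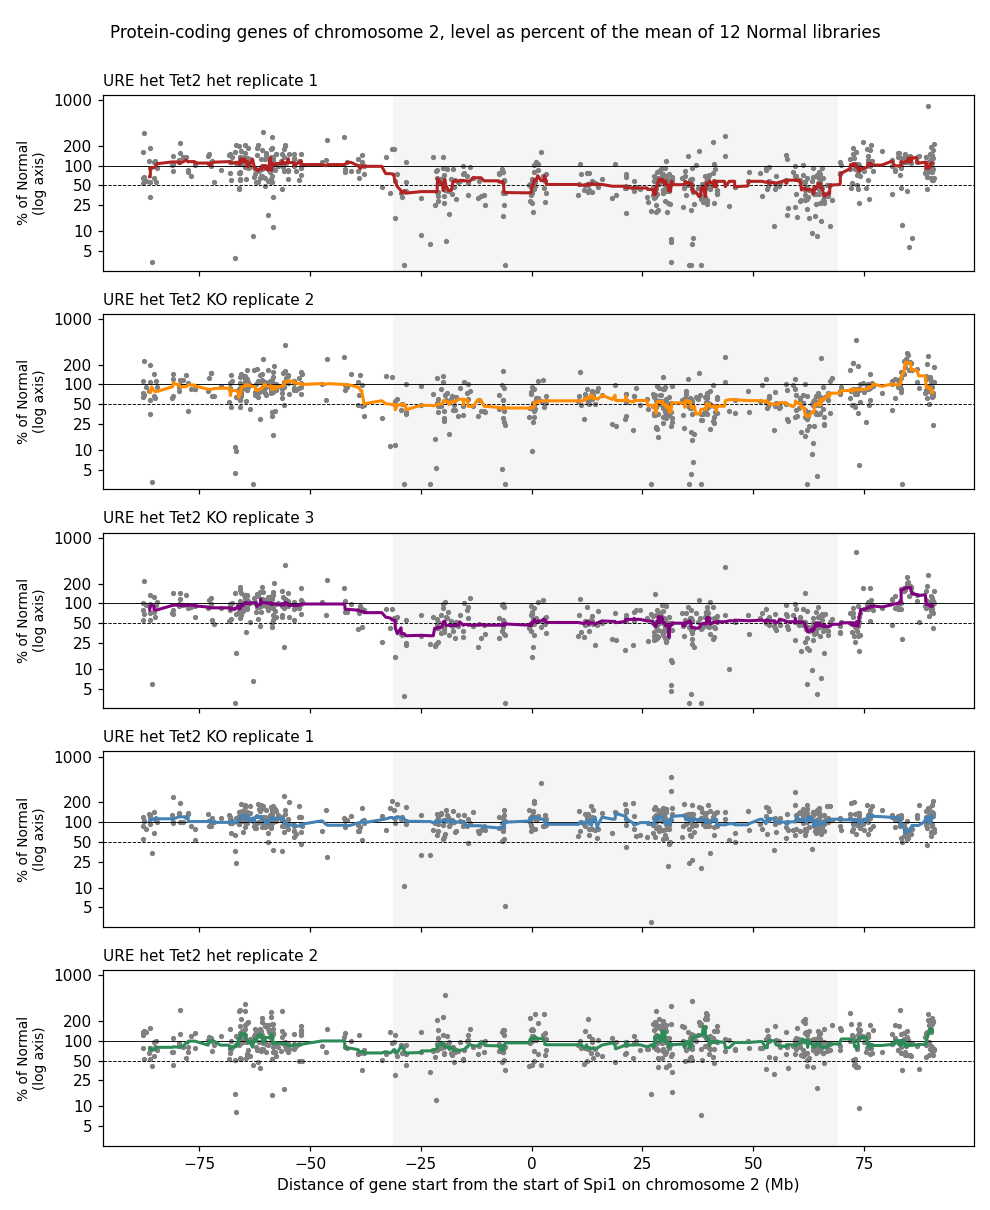
Level of 637 protein-coding genes of chromosome 2 in the 5 AML libraries, as percent of the mean of 12 Normal libraries on a log axis, against the distance of the gene start from the start of Spi1. Grey points are genes (values under 3% or over 1000% are drawn at those limits), the coloured line is the running median of 15 genes, the shaded band is the interval from 60 to 160 Mb, and the solid and dashed lines mark 100% and 50%. The running median drops near the left edge of the band and returns near its right edge in the upper 3 panels, at places that differ between libraries, and in the lower 2 panels it does not stay near 50%.

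The ends of the low stretch differed between the 3 low libraries. The longest run in which the running median of 15 protein-coding genes stayed at or under 70.7% went from March7 (60.2 Mb) to Plcg1 (160.7 Mb) in compound het 1. In compound KO 2 it went from Fmnl2 (52.9 Mb) to Tti1 (158.0 Mb), and in compound KO 3 from Cytip (58.1 Mb) to Ncoa5 (165.0 Mb). These ends are approximate, because each value is a median over 15 genes. Near the left ends, Cytip and Tanc1 lay at 133% and 132% in compound KO 2, and Cytip at 80.5% in compound KO 3. In the other AML libraries the longest such run spanned 4 and 10 windows, against 344, 346 and 371 in the 3 low libraries. The 4 genes from 158 to 160 Mb were all at or under 70.7% in compound het 1 and compound KO 3, while 1 of 4 was in compound KO 2. Of the 24 genes from 160 to 165 Mb, just outside the interval, 5, 7 and 20 were at or under 70.7%. From 165 to 170 Mb it was 5, 4 and 3 of 19 genes.

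Genes at the edges of the rule show this. Ralgapb, a subunit of the complex that inactivates Ral GTPases, and Dhx35, an RNA helicase, are the last named members before 160 Mb. Ralgapb lay at 51.5%, 112% and 47.8% and Dhx35 at 30.1%, 125% and 58.5% of Normal, so that both were low in 2 of the 3 libraries and above the Normal mean in compound KO 2. Just beyond 160 Mb, Top1, the DNA topoisomerase that relaxes supercoils, lay at 113%, 80.7% and 36.1% and Plcg1, a phospholipase C, at 76.6%, 72.8% and 34.8%, with only compound KO 3 near 50% or lower. At the left end, Tanc1 (181%, 132% and 80.4%) and Baz2b (177%, 50.8% and 59.6%) start before 60 Mb. March7, a ubiquitin ligase, at 58.3%, 56.5% and 55.5%, and Ly75, at 16.1%, 12.02% and 15.2%, start after it. At the expression limit, Abtb2 (7.60 CPM) and Oip5 (7.94 CPM) stayed just outside, at 63.4%, 24.9% and 40.6% and 27.4%, 34.3% and 43.4%, and Ctnnd1 (8.03 CPM) and Rpusd2 (8.16 CPM) just inside, at 79.8%, 158% and 98.4% and 44.6%, 44.6% and 44.1%.

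Not every gene lay at 50%. A gene was counted as following the low level when its log2 ratio to the Normal mean was between -1.5 and -0.5 (35.4% to 70.7%) in each of the 3 low libraries separately. By that measure 109 of 358 members (30.4%) followed it, 29 lay above the band in all 3 libraries and 24 lay below it in all 3. Of all 8449 genes at 8 CPM or more, 4.37% were within the band, 57.7% above and 2.82% below. The rule used these contrasts, so the shares are printed as a description alone. The remaining 196 members were in different zones in different libraries, 99 of them within the band in 2 of 3, and 19 above in one library and below in another. Library by library, 195, 201 and 220 members were within the band, 81, 81 and 67 above it and 82, 76 and 71 below it. Against Normal libraries of the same range of title numbers (5 and 7 libraries), 131 members were within, 37 above and 29 below in all 3.

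**Figure D3:**
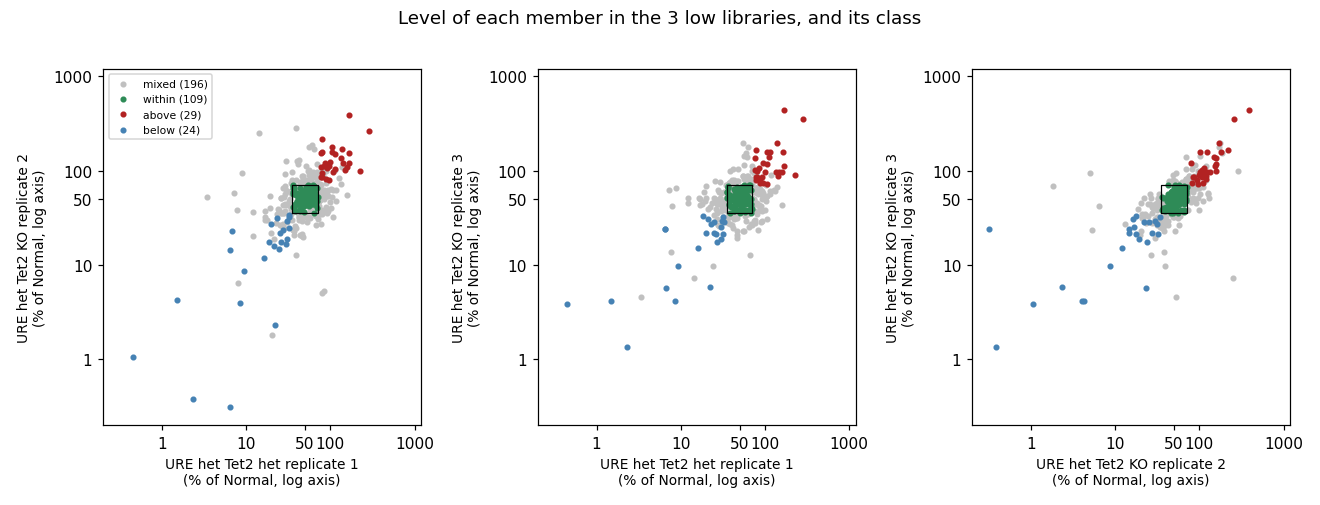
Level of each of the 358 members in pairs of the 3 low libraries, as percent of the mean of 12 Normal libraries on log axes. Colours give the class over all 3 libraries (within the 50% band 109, above 29, below 24, mixed 196), and the square marks 35.4% to 70.7% in both libraries shown. Most points surround the square, and the points farthest from it lie towards the lower left.

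Most members were lower than any Normal library. In compound het 1, 264 of 358 members were below all 12 Normal libraries, where 26.4% of all 8449 genes were. In compound KO 2 and 3 it was 269 and 287 members, where 27.5% and 23.9% of all genes were. The count was 217 for all 3 low libraries together, and 40 members were below all Normal libraries in none of them. In the other AML libraries 53 and 110 members lay below all Normal libraries, with 14.4% and 27.9% of all genes.

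The members nearest to 50% came from many functions. Serf2 (chr2:121449195-121458313), a small protein that promotes protein aggregation, measured 12.8, 11.8 and 12.1 CPM in the 3 low libraries and 19.8 to 31.6 CPM in the Normal libraries (median 23.6). Caprin1 (chr2:103762941-103797649), an RNA-binding protein of stress granules, measured 279, 286 and 265 CPM and 469 to 591 CPM in the Normal libraries (median 571). Pank2 (chr2:131262495-131299188), which starts coenzyme A synthesis, measured 17.3, 18.4 and 18.4 CPM and 31.7 to 41.3 CPM in the Normal libraries (median 37.3). In all of these the 3 low libraries lay under every Normal library and within 4 percentage points of each other. In the other AML libraries Serf2 measured 14.2 and 27.5 CPM, so that compound KO 1, at 57.6% of Normal, was also under every Normal library. Caprin1 measured 738 and 424 CPM there, above and below the Normal range, and Pank2 38.3 and 35.6 CPM, both within it.

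Eif2ak4 (GCN2), a kinase that senses amino acid starvation, lay at 47.1%, 47.7% and 49.2%, and its Normal libraries ran from 14.4 to 35.4 CPM. Kat14, an acetyltransferase subunit, lay at 48.9%, 47.7% and 49.5% and Xrn2, a nuclear exoribonuclease, at 54.1%, 45.7% and 46.2%. Wipf1, a partner of the Wiskott-Aldrich syndrome protein, lay at 47.7%, 49.2% and 46.1%, and at 100.2% and 47.2% in the other AML libraries, so it was also near 50% in compound het 2. Pced1a lay at 49.95%, 52.9% and 49.2% and 87.6% and 266%. These genes were chosen for their closeness to 50%, so their agreement carries no test.

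Members were also grouped into 9 lists by function, of which the shares within the band ran from 9 of 15 (translation) to 3 of 23 (cell cycle). The lists, and which genes they hold, were drawn up with earlier results of these data known, so their counts are descriptions, and none is set apart by a test. In translation and ribosome biogenesis, 9 of 15 members were within the band and none was outside it in all 3 libraries. Their medians were 44.6%, 54.2% and 48.6%. Eif2s2, a subunit of initiation factor eIF2, measured 71.6, 85.2 and 66.4 CPM and 109 to 184 CPM in the Normal libraries (median 146), and Nop56, a core protein of box C/D snoRNPs, 94.0, 82.8 and 95.9 CPM and 129 to 277 CPM in the Normal libraries (median 200.4). Both were under all Normal libraries in the 3 low libraries, and Nop56 was at 214% in compound het 2.

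In the ubiquitin, proteasome and autophagy list 8 of 14 members were within the band, Atg13 was above it and Ube2e3 below. Usp8, a deubiquitinase of endosomes, lay at 61.3%, 44.2% and 43.8% and Itch, a ubiquitin ligase, at 69.1%, 47.9% and 35.6%. Trim44 lay at 75.5%, 48.4% and 37.1%, with compound het 1 just above the band. Ube2e3, a ubiquitin-conjugating enzyme, lay at 32.2%, 32.6% and 21.4%. In membrane traffic, lysosome and cytoskeleton, 7 of 16 members were within, Cst7 was above and none was below. Snx5, a sorting nexin, measured 63.3, 62.9 and 80.3 CPM and 122 to 186 CPM in the Normal libraries (median 137), so all 3 low libraries lay under the Normal range.

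Splicing and mRNA processing had 6 of 17 members within the band and none above or below it in all 3. Ssb, the La protein, measured 55.9, 66.4 and 59.6 CPM and 112 to 158 CPM in the Normal libraries (median 140.0). Rbm39, a splicing factor, lay at 73.6%, 48.1% and 48.7% and Hnrnpa3 at 75.3%, 34.8% and 30.2%, so both were higher in compound het 1 than in the other low libraries. Hnrnpa3 is a gene whose Normal libraries themselves ran from 381 to 1209 CPM. Against the Normal libraries of its own range it lay at 51.8%, 51.5% and 44.7%, which is within the band.

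Of the 29 members above the band in all 3 libraries, 18 were protein-coding and 11 were pseudogenes. Only 3 protein-coding members exceeded 100% in all 3: Plcb1, Tmem87b and Ldlrad3. Plcb1 (chr2:134786067-135475258), a phospholipase C of G protein signalling, measured 25.8, 23.5 and 32.0 CPM in the 3 low libraries, 9.98 and 9.68 CPM in the other AML libraries and 4.34 to 14.3 CPM in the Normal libraries (median 8.50). The 3 low libraries were all above the Normal range, at 286%, 260.0% and 355% of the Normal mean, and the other AML libraries lay inside it.

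Tmem87b (chr2:128818118-128854261), a Golgi membrane protein, measured 42.7, 38.8 and 28.3 CPM, 43.3 and 49.9 CPM and 21.6 to 28.5 CPM in the Normal libraries (median 25.7). The other AML libraries lay above all 3 low libraries, and compound KO 3 was within the Normal range. Ldlrad3 measured 25.01, 37.2 and 28.003 CPM and 12.2 to 31.5 CPM in the Normal libraries (median 24.3), with only compound KO 2 above that range. Atp8b4 (chr2:126320973-126500674), a phospholipid flippase, measured 711, 602 and 445 CPM, 656 and 694 CPM and 326 to 635 CPM in the Normal libraries (median 526), so compound het 1 and both other AML libraries exceeded it.

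Cd93, a surface glycoprotein of early progenitors, myeloid cells and endothelium, lay at 148%, 102% and 95.8% of Normal and at 56.6% and 62.6% in the other AML libraries. Slc23a2, a vitamin C transporter, lay at 227%, 98.6% and 88.9%. Compound het 1 was the one low library above the Normal range, and compound KO 1 was above it too. Dstn, the actin-severing protein destrin, lay at 86.6%, 121% and 82.5%, and at 169% and 37.9% in the other AML libraries, which ran in opposite directions. Cst7, the leukocyte cystatin F, lay at 99.1%, 123% and 96.8%. Mettl8, an RNA methyltransferase, and its neighbour Dcaf17 lay at 135%, 135% and 95.9% and 91.1%, 107% and 85.3%. Slc35c1, the Golgi transporter of GDP-fucose, and Atg13, a starter of autophagy, lay at 84.6%, 113% and 106% and 80.0%, 85.5% and 85.9%. Most of these values of the 3 low libraries lay inside the Normal range of the gene.

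**Figure D4:**
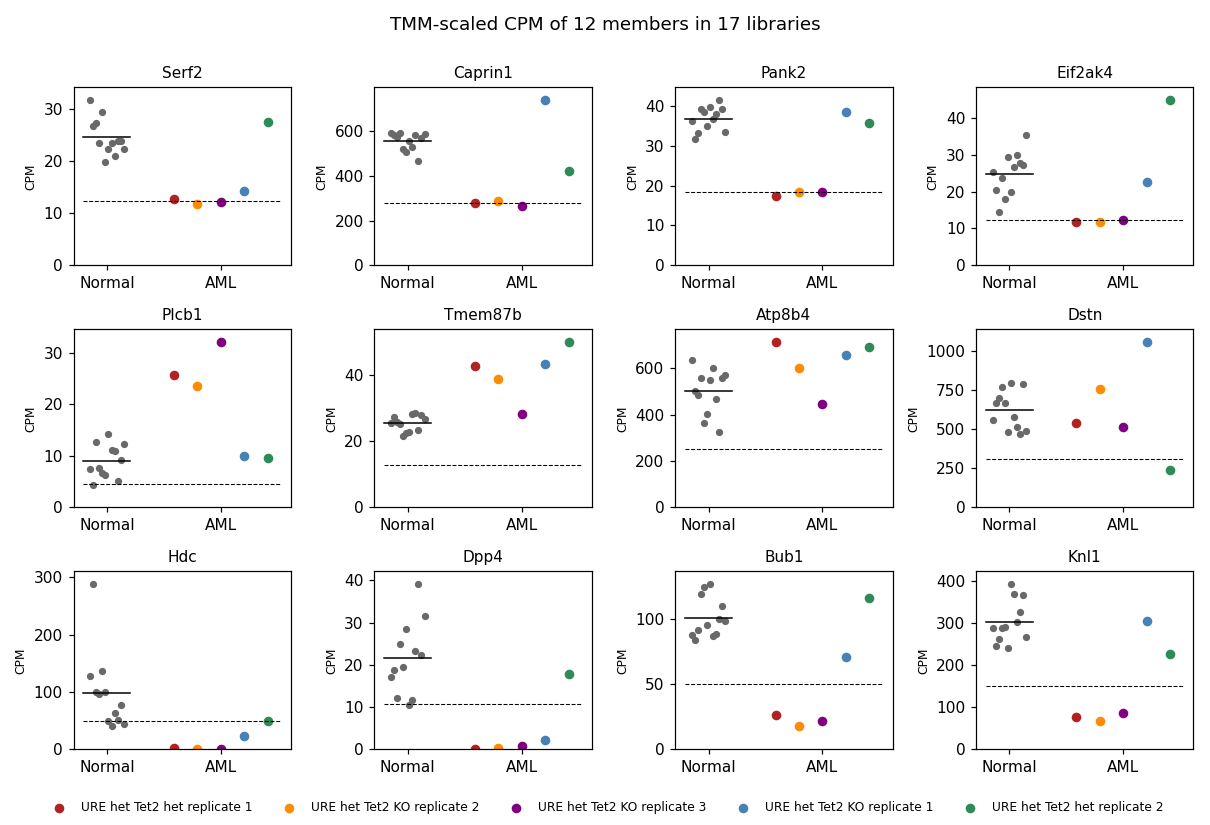
TMM-scaled CPM of 12 members in the 17 libraries, on linear axes from 0. Grey points are the 12 Normal libraries, coloured points the 5 AML libraries, the solid line the Normal mean and the dashed line 50% of it. The 3 low libraries sit on the dashed line in the upper row and under it in the lower row. In the middle row they sit among or above the Normal points, with all 3 above them only for Plcb1.

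All 24 members below the band in all 3 libraries were protein-coding. Hdc (chr2:126593667-126619299), the histidine decarboxylase that makes histamine in mast cells and basophils, measured 2.28, 0.373 and 1.33 CPM in the 3 low libraries, 23.3 and 49.5 CPM in the other AML libraries and 40.3 to 287 CPM in the Normal libraries (median 86.7). The 3 low libraries were far under the Normal range, compound KO 1 was under it and compound het 2 within it. Over 5 mast cell and basophil genes of other chromosomes (at 8 CPM or more, of a list of 7 drawn up after the data were seen), the medians were 0.276%, 0.367% and 0.481% in the 3 low libraries and 19.3% and 49.9% in the other AML libraries. Cpa3, a mast cell protease on chromosome 3, measured 0.195, 0.229 and 0.0605 CPM against 31.3 to 128 CPM in the Normal libraries. Mcpt8, a basophil protease on chromosome 14, lay at 46.7%, 58.6% and 86.8% of Normal. The part of these cells in the level of Hdc was not tested.

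Dpp4 (chr2:62330073-62412231), the surface peptidase CD26, measured 0.0976, 0.229 and 0.847 CPM, 2.33 and 17.8 CPM and 10.5 to 39.1 CPM in the Normal libraries (median 20.9). The value of compound het 1 rests on 3 counts, 0.451% of Normal with an exact Poisson 95% interval of 0.0930% to 1.32%, which covers counting error only. Itpripl1 lay at 1.501%, 4.30% and 4.19%, the first of these from 8 counts. Stk39, a kinase that regulates ion cotransporters, measured 0.585, 0.0287 and 2.21 CPM and 3.88 to 13.4 CPM in the Normal libraries (median 8.96), and the value of compound KO 2 is 1 count (0.316% of Normal, interval 0.00799% to 1.76%). Trp53inp2, a regulator of autophagy, lay at 8.48%, 4.01% and 4.12%.

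Of the other lowest members, Ly75 (chr2:60292103-60383303), the endocytic receptor DEC-205, measured 26.4, 19.7 and 24.9 CPM, 192 and 49.3 CPM and 78.2 to 250.001 CPM in the Normal libraries (median 148). The 3 low libraries and compound het 2 lay under all Normal libraries, and compound KO 1 lay within the Normal range. Slc28a2, a nucleoside transporter, lay at 6.74%, 22.9% and 5.71% but at 298% and 179% in the other AML libraries. Dusp2, a phosphatase of MAP kinases, lay at 6.46%, 14.4% and 24.0% and at 26.5% and 413%, and Samhd1, a dNTP hydrolase, at 27.1%, 23.7% and 17.3% and 73.1% and 46.3%.

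In the list of cell cycle, DNA replication and repair, 8 of 23 members were below the band in all 3 libraries, 3 were within it, none was above and 12 were mixed. The list medians were 31.9%, 24.9% and 33.1% in the 3 low libraries and 100.3% and 96.6% in the other AML libraries. Bub1 (chr2:127801122-127831865), a kinase of the spindle checkpoint, measured 26.3, 17.7 and 21.8 CPM, 71.1 and 116 CPM and 83.8 to 126 CPM in the Normal libraries (median 96.7). Knl1 (chr2:119047119-119105501), the kinetochore scaffold that binds it, measured 75.9, 67.2 and 87.0 CPM, 304 and 227 CPM and 241 to 392 CPM in the Normal libraries (median 291). For both, the 3 low libraries did not reach the lowest Normal library. Compound KO 1 was under the Normal range for Bub1 and within it for Knl1, and compound het 2 the reverse.

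Bub1b, the BubR1 protein of the same checkpoint, lay at 31.9%, 33.9% and 32.1%, Nusap1, a spindle protein, at 21.1%, 16.1% and 30.7% and Tpx2, an activator of Aurora A, at 30.0%, 16.6% and 25.5%. Kif18a, a kinesin of chromosome alignment, lay at 32.4%, 24.9% and 28.3% and Cdca7 at 18.5%, 17.5% and 33.1%. The eighth, Cdk5rap1, is a tRNA-modifying enzyme despite its name and lay at 9.32%, 8.70% and 9.68%. Spc25, a kinetochore subunit that is not in the list, lay at 24.8%, 14.6% and 22.0%. Pcna, the sliding clamp of DNA replication, measured 62.4, 59.9 and 102 CPM and 208 to 258 CPM in the Normal libraries (median 233), and Ckap5, a microtubule polymerase, 128, 91.9 and 94.6 CPM and 220.1 to 362 CPM in the Normal libraries (median 289.9), so both lay under the Normal range in the 3 low libraries. Trp53bp1, Mcm8 and Mapre1 were the members of the list that stayed within the band.

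Over 16 mitosis genes of other chromosomes, listed after the data were seen, the medians were 58.6%, 40.1% and 54.7% in the 3 low libraries and 122% and 73.4% in the other AML libraries. Mki67, the proliferation marker on chromosome 7, lay at 61.0%, 39.9% and 54.6%, and Top2a on chromosome 11 at 57.3%, 40.5% and 49.1%. Summed, the 16 genes gave 3315, 2117 and 2782 CPM in the 3 low libraries, 6646 and 3627 CPM in the other AML libraries and 3853 to 7784 CPM in the Normal libraries. The sums of the 3 low libraries and of compound het 2 were thus under the Normal range. The part of these genes in the level of the chromosome 2 members was not tested.

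**Figure D5:**
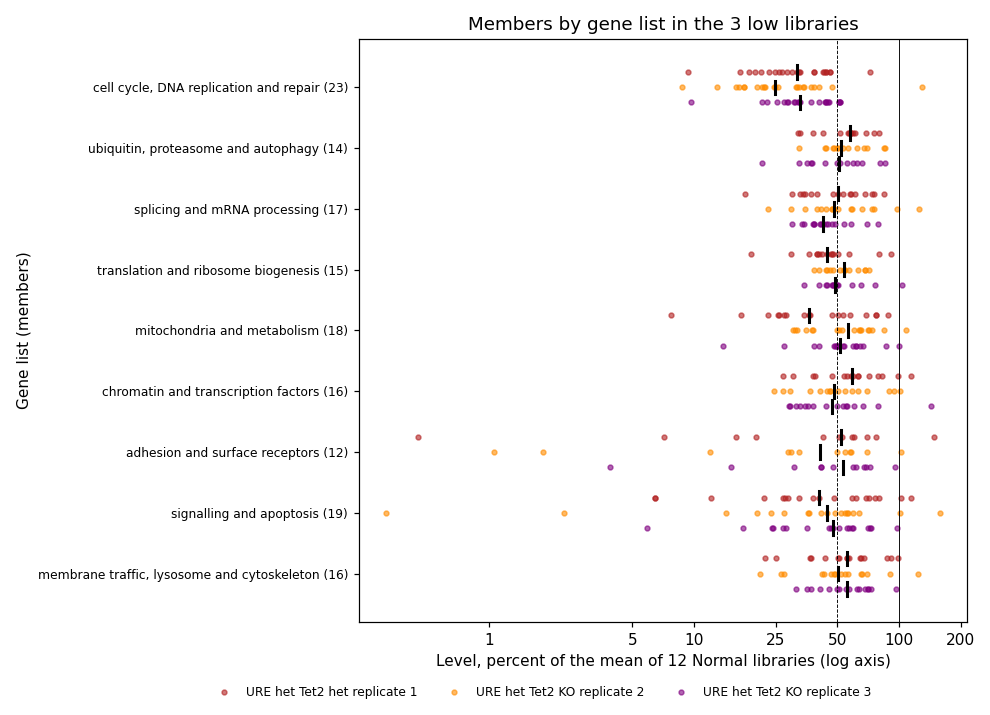
Level of the members of 9 gene lists in the 3 low libraries, as percent of the mean of 12 Normal libraries on a log axis. Points are genes coloured by library, black ticks are medians, and the dashed and solid lines mark 50% and 100%. The ticks of the cell cycle list lie at 24.9% to 33.1%, to the left of those of the other lists, which lie at 36.6% to 58.9%.

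Mitochondria and metabolism had 5 of 18 members within the band, 2 above, 1 below and 10 mixed, with medians of 36.6%, 56.6% and 51.8%. Agps, an enzyme of ether lipid synthesis, lay at 77.0%, 108% and 100.4% and Cat, catalase, at 77.7%, 84.9% and 86.3%, both above the band. Acss1, a mitochondrial acetyl-CoA synthetase, lay below it at 23.1%, 31.7% and 27.5%, and Gatm, which makes the creatine precursor, ranged widely at 7.72%, 38.0% and 13.8%.

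Chromatin and transcription factors had 4 of 16 within, 1 above, 1 below and 10 mixed. Sp3, a zinc finger factor, lay at 63.0%, 59.2% and 53.2%, Ino80, the ATPase of a chromatin remodeller, above the band at 79.2%, 94.6% and 79.2%, and Plagl2 below it at 30.5%, 29.6% and 29.1%. Ssrp1, a subunit of the histone chaperone FACT, lay at 38.9%, 24.5% and 32.7%. Nfe2l2, the NRF2 factor of the oxidative stress response, lay at 99.5%, 46.3% and 38.2%, so compound het 1 lay at the Normal mean and the other low libraries within the band.

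Adhesion and surface receptors had 2 of 12 within, 1 above (Cd93), 2 below (Ly75 and Dpp4) and 7 mixed. Itga4, the alpha 4 integrin, measured 161, 159 and 130.2 CPM and 190.2 to 338 CPM in the Normal libraries (median 285), and Cd44, the hyaluronan receptor, 136, 94.9 and 98.4 CPM and 248 to 456 CPM in the Normal libraries (median 309.7). In both genes the 3 low libraries lay under all Normal libraries. Signalling and apoptosis had 3 of 19 within, 1 above (Ctnnd1), 4 below (among them Stk39, Dusp2 and Samhd1) and 11 mixed. Plcb2, a phospholipase C that blood cells use, lay at 69.0%, 36.4% and 27.1% and Api5, an apoptosis inhibitor, at 38.2%, 56.0% and 35.7%. Of the 208 members in no list, 62 were within, 22 above, 7 below and 117 mixed.

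The scatter of the members about their own median was close to that of genes on other autosomes about theirs. The interquartile range of the log2 ratio was 0.92 for members and 0.88 for 7445 genes of other autosomes in compound het 1. It was 0.88 for both in compound KO 2 and 0.76 against 0.70 in compound KO 3. Within 0.5 (log2) of the median of their own set in all 3 libraries were 30.4% of members and 32.2% of genes on other autosomes. Above that range in all 3 were 8.10% and 5.72%, and below it 7.26% and 8.15%. Among protein-coding genes alone the shares above were 5.41% and 5.79%. No test was made, because the members were chosen on these libraries.

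The 19 pseudogene members had medians of 79.4%, 149% and 139.6% of Normal in the 3 low libraries and 93.8% and 51.7% in the other AML libraries, and none lay within the band in all 3. Single Normal libraries had pseudogene medians of 78.6% to 125%, so compound het 1 was inside that range and compound KO 2 and 3 were above it. Rps6-ps4 lay at 113%, 149% and 139.6% and Rps6 itself, on chromosome 4, at 112%, 150% and 139%. Rpl10-ps1 lay at 139%, 171% and 198% and Rpl10, on the X chromosome, at 145%, 176% and 186%. Rpl9-ps7 lay at 76.9%, 155% and 136% and Rpl9, on chromosome 5, at 67.5%, 168% and 129%. These 3 pseudogenes lay within 13 percentage points of their namesakes in each of the 3 low libraries, and none was near 50%. Rpl5-ps2, at 105%, 180.1% and 158% against 153%, 155% and 118% of Rpl5, was farther from its namesake. Of the 6 pseudogene members with Rpl or Rps names, Rpl35a-ps4 and Rps15a-ps7 were not compared with a namesake. Counts of processed pseudogenes are uncertain, since reads of the parent gene can be assigned to them and how multiple matches were counted was not given. With Plcb1, Rpl10-ps1 was the only member above every Normal library in all 3 low libraries.

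Table features whose names join a gene identifier to enh also lay near 50% of the level of other autosomes, at lower depth. Their coordinates were not given, and they are taken here only by the gene they name. Members had 1012 of them, of which 328, for 149 genes, had a Normal mean of at least 1 CPM. Their medians were 55.3%, 35.7% and 37.0% of Normal in the 3 low libraries, and those of the 7105 such features of genes on other autosomes 104%, 65.7% and 72.6%. The ratio of these medians was 53.3%, 54.3% and 50.9% in the 3 low libraries, 103% in both other AML libraries and 95.5% to 107% in Normal libraries.

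The single mutants were compared with WT to see whether the URE deletion or the loss of Tet2 alone moved these genes. The choice of the interval did not use this contrast, but the spread in the test came from all 17 libraries. Each compound genotype held both low and other libraries, which can widen the spread of the members. The number of members called is therefore not independent of that choice. No member was called by edgeR's quasi-likelihood test at an adjusted p of 0.05 in URE het, Tet2 het or Tet2 KO against WT (0 of 358 each, n = 3 against 3), and 0% of all 19951 genes tested were called. DESeq2 called 0 members as well, and 7, 1 and 12 of all 19951 genes in the same order. At an unadjusted p under 0.05 edgeR gave 8, 3 and 6 members (2.23%, 0.838% and 1.68%), against 3.77%, 2.93% and 2.57% of all genes. The median log2 fold change over members was 0.02, -0.05 and 0.07, and the quartiles lay within -0.23 and 0.20. Casc4, Esf1 and Cers6 were the 3 members in Tet2 het, named after their values had been seen. Esf1, a ribosome biogenesis factor, had log2 fold changes of -0.88 ± 0.36, -1.45 ± 0.37 and -1.18 ± 0.36 (SE) in URE het, Tet2 het and Tet2 KO. Those of Casc4 were -0.94 ± 0.34, -0.78 ± 0.34 and -0.82 ± 0.34, and those of Cers6 -0.51 ± 0.25, -0.62 ± 0.25 and -0.61 ± 0.25. Plcb1, the highest member in the 3 low libraries, had 1.07 ± 0.44, 0.33 ± 0.43 and 0.69 ± 0.43. All of these had an edgeR adjusted p of 1, and the 3 comparisons share the WT libraries. By title number WT was 1, 2 and 8 and URE het 3, 9 and 10. Tet2 het was 5, 11 and 12 and Tet2 KO 4, 13 and 14. WT thus had more of its libraries in the range 1 to 7 than each mutant. In these fold changes a direction shared by the mutants was not separated from that split. With the title range as a term 0 members were called as well.

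The contrast of all AML with all Normal libraries contains the 3 libraries that chose the interval, so its calls on members are a description, and nothing is read from their number or direction. edgeR called 58 of 358 members (16.2%), where it called 11% of all genes. Of the 58, 56 were lower in AML (15.6% of members, against 4.02% of all genes called lower). The other 2, Tmem87b and Plcb1, were higher, with log2 fold changes of 0.69 ± 0.12 and 1.18 ± 0.27 (SE). Cst3, the protease inhibitor cystatin C, named after its values had been seen, had a log2 fold change of -1.37 ± 0.22. It measured 28.2, 34.9 and 51.9 CPM in the 3 low libraries, 96.6 and 49.0 CPM in the other AML libraries and 104 to 173 CPM in the Normal libraries (median 126). All 5 AML libraries lay under every Normal library. The count of called members was 31 and 27 without compound KO 2 and 3, 198 without compound KO 1 and 38 without WT replicate 1. Calls over all genes in these fits were 1229 of 19790, 1291 of 19806, 3998 of 19868 and 1792 of 19856. Fits without a compound het library leave a single library of the genotype, so their counts are not set beside these.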

How the data were processed

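The authors deposited raw counts per feature, which were not normalized. Reads had been aligned to GRCm38 with STAR, per the submitters' processing notes. Which version, counter, gene annotation and strand setting they used is not given in the sources used here. Of 96004 features 47643 were genes, and 47224 of these matched GENCODE vM21 of GRCm38 without their version (39106 with it), which gave symbols and positions.

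The genes described, their lists and the questions were chosen with earlier results of these data known. Counts over genes were scaled by TMM (edgeR 4.0.16, R 4.3.3) to CPM, and each level was divided by the mean of 12 Normal libraries. Medians, the 50% band (log2 -1.5 to -0.5) and its counts are descriptions without a test. The 3 low libraries were never averaged or tested as a group. Genotypes were tested over all 17 libraries with 1 mean for each of 6 genotypes by edgeR's quasi-likelihood test (robust, filterByExpr with minimum count 10 and total 15, 19951 genes, Benjamini-Hochberg at 0.05, two-sided). The procedure was tested on simulated data. Genes named were the 8 protein-coding members closest to 50%, the 12 highest and 12 lowest, those at the edges of the rule, and in each of 9 lists the 3 most abundant members and members outside the band in all 3 libraries, of which 1 gene is not reported here. Others are named as chosen after their values were seen or for their role beside a result. Alternatives were DESeq2 1.42.0 and its size factors, total counts, another minimum or band, a median or same-range reference, leaving out each library, and a term for title numbers (1 to 7 against 8 to 17). The labels do not call these ranges a batch. Gene counts of 21.1 to 38.3 M per library make counting error small for all but the rarest members. Tables and figures were made with Python 3.11.15, pandas 2.3.3 and matplotlib 3.10.9.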

Additional observations from a re-analysis of the deposited data

Results flagged for a closer look

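Among 31 genes named as closest to 50%, highest or lowest, 8 had 1 AML library far from the other 4, by a gap of more than 0.71 of the range of all 5. The rate of about 1 in 20 that chance gives does not apply here, because the genes were chosen for the shared level of 3 of the 5 libraries, which leaves the other 2 to stand apart. Compound het 2 stood apart for Dpp4 (17.8 CPM), Dusp2 (79.0 CPM), Pced1a (23.4 CPM) and Serf2 (27.5 CPM), and was the highest in each. Compound KO 1 stood apart for Ly75 (192 CPM), Trp53inp2 (67.4 CPM) and Wipf1 (93.3 CPM), and was the highest in each. In compound het 1, Slc23a2, the vitamin C transporter, stood apart at 25.9 CPM. The first 7 are values of the libraries that did not share the low level, and the last is a low library.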

How the results depend on the processing

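The 32 named levels were recomputed with DESeq2 size factors, with the same-range reference and without each Normal library (448 values). In these runs they moved by less than the spread of the Normal libraries, and the 12 highest and 12 lowest genes kept their side of the band. The other alternatives, total counts among them, were not run on these levels. Scaling by total gene counts gave member medians of 47.1% in compound KO 2 and 44.2% in compound KO 3. Over all alternatives other than leaving out libraries and this scaling the medians differed by less than 1 SD of the Normal libraries. Leaving out single Normal libraries gave medians of 51.3% to 52.3%, 50.9% to 52.1% and 49.7% to 50.4%, 101 to 110 members within the band, 28 to 31 above and 24 to 26 below. A band of 0.3 in place of 0.5 gave 49, 48 and 39. With a minimum of 20 CPM, 18 members lay above the band, and with protein-coding members alone also 18. AML against Normal gave 110 called members with the title range as a term, 103 by DESeq2, and 9 to 198 without single libraries (38 without WT replicate 1), and the cause was not tested. Calls also rose over all 19951 genes tested, from 2188 in the main fit to 3664 with the title range term and 3255 by DESeq2. The lowest member count without single libraries came from the fit without compound het 1, which leaves a single library of its genotype. That count is therefore not read as a bound. In the fits that kept both compound het libraries, the member counts ran from 27 (without compound KO 3) to 198 (without compound KO 1). The 3 genotype comparisons gave 0 called members in each fit that left out a library. No paired analysis was possible because the titles number the libraries serially and the replicate numbers were given in accession order. The levels rest on RNA alone, the 3 low libraries chose the interval, and 19 pseudogenes have uncertain counts.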
